A study of Homo sapiens with 4 samples.

Results

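The Krüppel-like factors (KLFs) examined here were the 10 genes KLF2, KLF3, KLF4, KLF5, KLF6, KLF9, KLF10, KLF11, KLF13 and KLF16, taken by their symbols from the feature lists of 2 single-cell RNA-seq matrices. All 10 were present among the 33540 features of the Ishikawa matrix and the 33538 features of the T-47D matrix. Ishikawa is an established line of human endometrial adenocarcinoma, and T-47D is an established line of human breast ductal carcinoma. Both lines were kept in hormone-depleted medium and then given 17β-estradiol (E2), the main estrogen, at 10 nM for 2, 4 or 8 h. The 0 h cells received the vehicle DMSO. Cells of the 4 time points were tagged by MULTI-seq, which marks the membrane of every cell of a culture with a DNA barcode, and were mixed into 1 droplet library per line. Each line and time point was therefore 1 culture, which gives 8 pools of cells with no replicates. No test is possible between them, and every interval below is a 95% interval that covers counting error only, not the spread between cultures. The Ishikawa feature list also held the reporters GFP and tdTomato, and GFP alone stood at 31688 to 46740 CPM (UMIs per 1000000 UMIs of the pool) in the 4 Ishikawa pools, so cells of this library carried a reporter.

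KLFs are DNA-binding proteins with zinc fingers at the C-terminal end that recognise GC-rich and CACCC-type sequences, and they share this preference with the SP factors. The N-terminal parts differ and set what each protein does. KLF2, KLF4, KLF5 and KLF6 act largely as activators, KLF9, KLF10, KLF11, KLF13 and KLF16 recruit the SIN3 corepressor, and KLF3 recruits the corepressor CtBP. Several of them are known from estrogen-responsive tissue: KLF5 drives proliferation of epithelial cells, KLF9 is a partner of the progesterone receptor in the endometrium, and KLF10 was first described as a gene induced early by TGF-β.

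The promoter windows of KLF5 and KLF6 are shown because these were the activators with the lowest levels relative to 0 h in Ishikawa cells after 2 h of E2. The RefSeq table (GRCh38.p14) held 10 windows for 8 of the 10 genes, each running from 250 bases before to 50 bases after a transcription start. It held none for KLF3 and KLF10, so their promoters were not searched. KLF5 had a window on the plus strand at chr13:73054726-73055025 and another on the same strand at chr13:73058755-73059054, and KLF6 had a window on the minus strand at chr10:3785160-3785459. Capitals mark every match, on either strand, to GGGCGG (a GC box) or CACCC, the letters that KLF and SP factors are known to prefer.
KLF5, first start: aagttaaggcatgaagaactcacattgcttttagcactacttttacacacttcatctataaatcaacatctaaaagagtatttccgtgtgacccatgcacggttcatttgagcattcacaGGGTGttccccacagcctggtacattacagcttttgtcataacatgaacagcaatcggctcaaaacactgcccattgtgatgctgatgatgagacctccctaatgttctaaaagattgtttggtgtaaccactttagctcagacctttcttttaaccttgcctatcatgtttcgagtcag
KLF5, second start: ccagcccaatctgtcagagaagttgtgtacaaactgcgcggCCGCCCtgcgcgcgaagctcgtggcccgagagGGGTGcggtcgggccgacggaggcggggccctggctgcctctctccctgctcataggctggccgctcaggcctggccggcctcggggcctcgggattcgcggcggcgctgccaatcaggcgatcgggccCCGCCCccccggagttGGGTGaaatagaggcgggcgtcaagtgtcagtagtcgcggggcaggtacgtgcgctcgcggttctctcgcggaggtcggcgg
KLF6: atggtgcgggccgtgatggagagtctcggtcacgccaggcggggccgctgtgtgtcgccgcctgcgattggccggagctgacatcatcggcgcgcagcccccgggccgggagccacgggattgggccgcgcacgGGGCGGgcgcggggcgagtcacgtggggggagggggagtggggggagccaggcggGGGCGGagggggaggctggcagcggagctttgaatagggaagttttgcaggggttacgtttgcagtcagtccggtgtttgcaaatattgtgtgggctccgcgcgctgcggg
The 2 KLF5 windows differed in composition. The first was 40.7% G + C with 1 CACCC match and 0 GC boxes, and the second was 71.3% G + C with 2 CACCC matches and 2 GC boxes. The KLF6 window was 70.7% G + C and held 2 GC boxes and 0 CACCC matches. Over the 8 genes with a window, 8 of the 10 windows held a GC box and 4 of the 10 held CACCC, against 45.0% and 59.9% of all 35116 windows in the table. Counted by gene, 7 of the 8 had a GC box in a window and 3 had CACCC. The palindromic estrogen response element, GGTCA and TGACC with 3 bases of any kind between them, was in none of the 10 windows and in 0.0570% of all windows. The cyclic AMP response element TGACGTCA was in 1 window, the second of KLF11, and in 1.85% of all windows. The AP-1 site TGANTCA (7.71% of all windows) had no match. CCATA followed at once by TTAGG (0.0342%), a form of the serum response element, had none either, and other forms of it were not searched. These are letter matches in short windows, and the sites of binding were not measured here.

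Levels are UMIs (unique molecular identifiers, 1 per captured transcript) scaled to the total of the pool (CPM). The reads come from the 3′ end, so 1 transcript gives 1 UMI whatever its length and CPM is not divided by length. In 0 h Ishikawa cells the order was led by KLF5 at 45.4 CPM (42.1 to 48.9), KLF10 at 42.8 CPM (39.6 to 46.2) and KLF13 at 40.1 CPM (36.9 to 43.4), whose intervals overlapped. KLF3 at 19.5 CPM, KLF6 at 17.4 CPM and KLF16 at 13.7 CPM came next, and KLF11, KLF2, KLF4 and KLF9 lay between 1.57 and 3.33 CPM. In 0 h T-47D cells KLF3 at 22.1 CPM (20.5 to 23.7) and KLF6 at 20.3 CPM (18.8 to 21.9) led, again with overlapping intervals. KLF16 followed at 6.99 CPM, KLF13 at 4.85 CPM and KLF10 at 3.92 CPM, and KLF4, KLF11, KLF9, KLF5 and KLF2 lay between 1.02 and 2.77 CPM. The 10 genes together held 188 CPM in Ishikawa and 68.9 CPM in T-47D at 0 h.

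**Figure D1:**
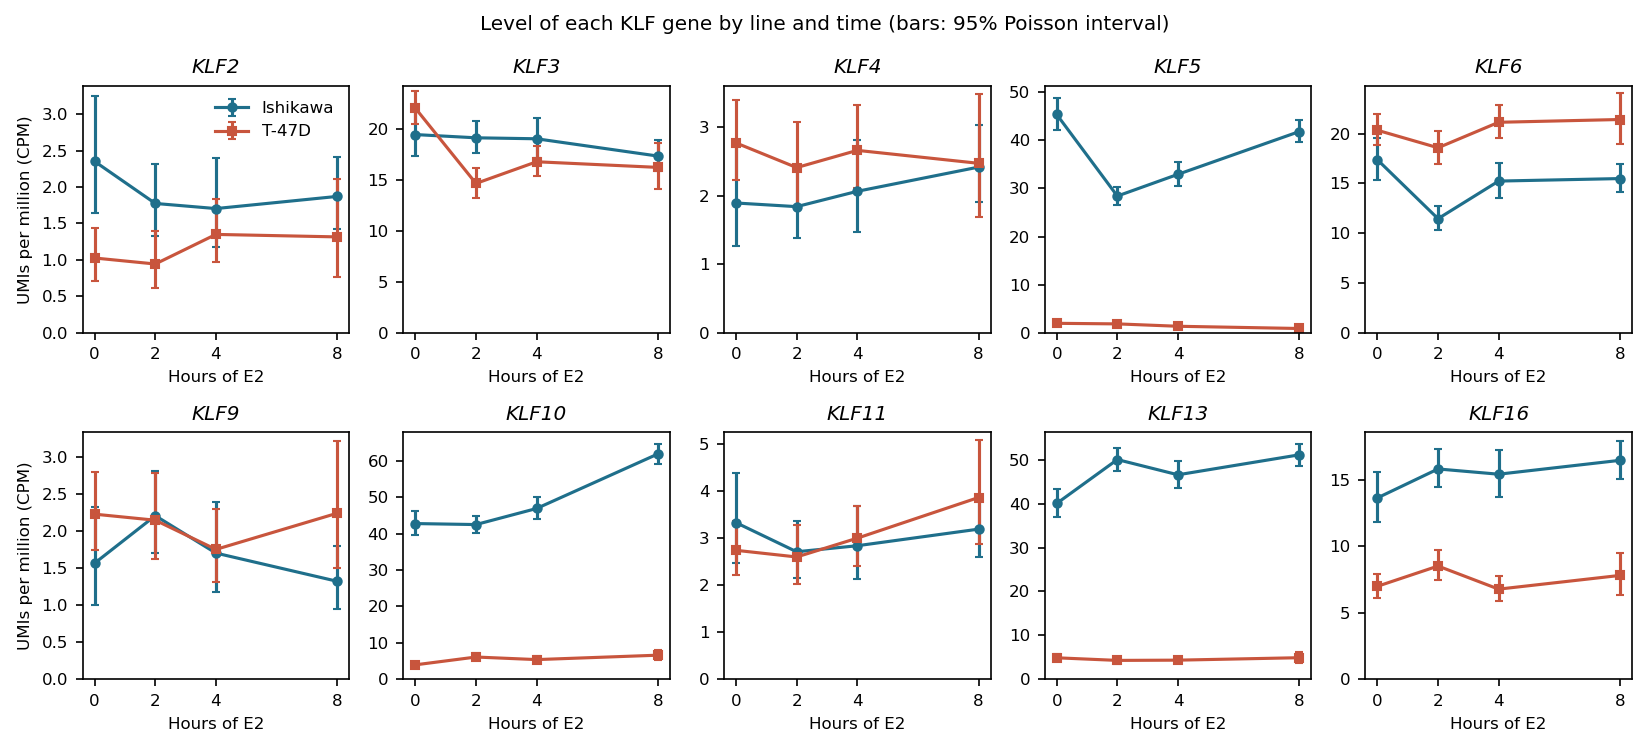
Level of each KLF gene in CPM (y axis, own scale for each gene) against hours of E2 (x axis) in Ishikawa (circles) and T-47D (squares), 1 pool of cells per point, with 95% Poisson intervals as bars. KLF5, KLF10 and KLF13 were several times higher in Ishikawa at all 4 times, and Ishikawa KLF5 ran from 45.4 CPM at 0 h to 28.4 CPM at 2 h and 41.8 CPM at 8 h.

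KLF5, KLF10 and KLF13 set the 2 lines apart. At 0 h KLF5 was 23.5-fold higher in Ishikawa than in T-47D (18.2 to 30.9), KLF10 was 10.9-fold higher (9.04 to 13.3) and KLF13 was 8.25-fold higher (6.93 to 9.88). Of the 6 KLF genes with at least 10 CPM in either line, these 3 were at least 2-fold higher in Ishikawa and none was at least 2-fold higher in T-47D, where 22.4% and 15.5% of all 8960 genes were. The 2-fold limit was set after the values were seen. KLF16 was 1.95-fold higher in Ishikawa (1.61 to 2.36), just under that limit. KLF3 and KLF6 were near the same level in both lines, with T-47D to Ishikawa ratios of 1.13 (0.989 to 1.30) and 1.17 (1.01 to 1.35). Each line is a single library, so line, library and cell clone cannot be told apart.

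Change after E2 is given as the log2 of (CPM + 1) over (CPM at 0 h + 1) of the same line, which understates the change of low genes, beside the plain ratio with its counting interval. A gene passed the fold rule when its mean over the 4 pools was at least 10 CPM and it differed by at least 1.5-fold. The mean reached 10 CPM for 6 of the 10 KLF genes in Ishikawa (KLF3, KLF5, KLF6, KLF10, KLF13 and KLF16) and for 2 of the 10 in T-47D (KLF3 and KLF6). In Ishikawa 1 of these 6 was lower at some time, KLF5, where 1.29% of all 7885 genes were, and none was higher, where 1.15% were. In T-47D none of the 2 passed in either direction, where 2.67% of 7440 genes were higher and 0.981% lower. Taken over the 6 Ishikawa genes, the median log2 change was -0.02 at 2 h, 0.05 at 4 h and 0.07 at 8 h, beside -0.014, -0.012 and 0.0015 over the whole table.

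**Figure D2:**
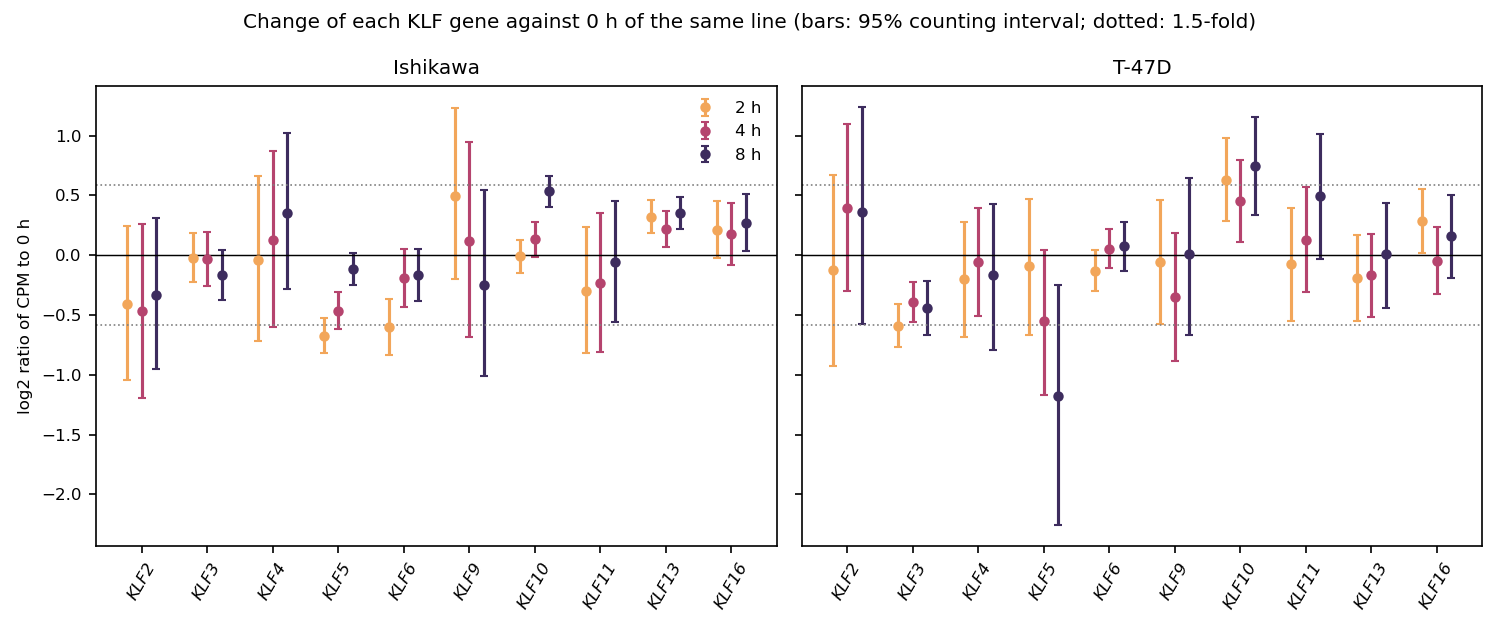
Log2 ratio of CPM to 0 h (y axis) for each KLF gene (x axis) at 2, 4 and 8 h of E2 in Ishikawa (left) and T-47D (right), without a pseudocount, with 95% counting intervals as bars and dotted lines at 1.5-fold. Ishikawa KLF5 and KLF6 were lowest at 2 h, Ishikawa KLF10 was highest at 8 h, and the wide bars belong to genes under 10 CPM.

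Among the activators, KLF5 in Ishikawa was lower soon after E2 and near its starting level again by 8 h. KLF5 (chromosome 13, 73054976 to 73077538 of GRCh38.p14) is turned over by ubiquitin ligases and promotes growth of epithelial cells. Its level was 45.4 CPM at 0 h, 28.4 CPM (26.5 to 30.4) at 2 h, 33.0 CPM (30.4 to 35.6) at 4 h and 41.8 CPM (39.6 to 44.2) at 8 h, from 695, 849, 638 and 1297 UMIs. The 2 h interval overlapped none of the others, and those of 0 h and 8 h overlapped. Relative to 0 h the ratio was 0.626 (0.566 to 0.693) at 2 h, 0.726 (0.651 to 0.809) at 4 h and 0.922 (0.840 to 1.01) at 8 h, and the log2 changes were -0.66, -0.45 and -0.12. At 2 h, where KLF5 passed, 0.659% of all genes were lower by the rule. From 4 h to 8 h the level was 1.27-fold higher (1.15 to 1.40).

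The genes whose 3 changes lay nearest to those of KLF5 in Ishikawa, by Euclidean distance over 2, 4 and 8 h, were PDP1 (a pyruvate dehydrogenase phosphatase, distance 0.0869), ID1 (an inhibitor of basic helix-loop-helix factors, 0.112) and SOWAHC (0.127). The log2 changes of ID1 were -0.69, -0.48 and -0.22, with a mean level of 538 CPM. These distances share 1 0 h pool and describe likeness over 3 values only.

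In T-47D, KLF5 stood at 1.93, 1.81, 1.32 and 0.851 CPM at 0, 2, 4 and 8 h, from 64, 48, 39 and 11 UMIs. The ratio at 8 h was 0.441 (0.210 to 0.843), but with 11 UMIs and a mean far under 10 CPM the gene was outside the fold rule. The distance between the lines was accordingly 15.7-fold (11.7 to 21.5) at 2 h and 49.2-fold (27.4 to 98.8) at 8 h.

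KLF6 (chromosome 10, 3775996 to 3785209), an activator of the cell cycle inhibitor CDKN1A, had a similar course in Ishikawa at a lower level. It stood at 17.4 CPM (15.4 to 19.6) at 0 h, 11.5 CPM (10.3 to 12.7) at 2 h, 15.2 CPM at 4 h and 15.5 CPM at 8 h. The 2 h interval lay below the other 3. The ratio at 2 h was 0.659 (0.560 to 0.776), a log2 change of -0.56 that fell just short of the fold rule (0.58), and from 2 h to 4 h the level was 1.33-fold higher (1.13 to 1.56). At 8 h 1 cell held 30 of the 480 KLF6 UMIs. In T-47D, KLF6 was at 20.3, 18.6, 21.1 and 21.4 CPM, with ratios to 0 h between 0.913 and 1.05 whose intervals all included 1. The T-47D to Ishikawa ratio of KLF6 was 1.62 (1.41 to 1.87) at 2 h.

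KLF4, a factor of epithelial differentiation and reprogramming, and KLF2, a factor of endothelial and T cell quiescence, were scarce in both lines. KLF4 lay between 1.84 and 2.42 CPM in Ishikawa and between 2.41 and 2.77 CPM in T-47D, and KLF2 lay between 1.70 and 2.35 CPM and between 0.942 and 1.35 CPM. With 17 to 92 UMIs per pool, all intervals of their ratios to 0 h included 1, so no change was detectable at this depth.

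Among the SIN3-binding members, KLF10 in Ishikawa was higher late. KLF10 (chromosome 8, 102648784 to 102655725), also called TIEG, stood at 42.8 CPM at 0 h, 42.5 CPM (40.2 to 44.9) at 2 h, 46.9 CPM (43.9 to 50.1) at 4 h and 61.9 CPM (59.2 to 64.8) at 8 h. The 8 h pool was above the other 3, whose intervals overlapped. The ratio at 8 h was 1.45 (1.32 to 1.58), a log2 change of 0.52 that did not reach 1.5-fold, and the step from 4 h to 8 h was 1.32-fold (1.22 to 1.43). In T-47D the level was 3.92, 6.07, 5.36 and 6.57 CPM from 130, 161, 159 and 85 UMIs. The ratios to 0 h were 1.55 (1.22 to 1.97), 1.37 (1.08 to 1.74) and 1.68 (1.26 to 2.22), all above 1 by counting error, and the mean of 5.48 CPM left the gene outside the fold rule.

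KLF13 (chromosome 15, 31326835 to 31435665), known as a regulator of chemokine expression in T cells, was higher at all 3 later times in Ishikawa. It was at 40.1 CPM at 0 h, 50.1 CPM (47.6 to 52.7) at 2 h, 46.6 CPM (43.6 to 49.7) at 4 h and 51.1 CPM (48.7 to 53.7) at 8 h. The 0 h pool was below the other 3, and those 3 overlapped. The ratio was 1.16 (1.05 to 1.29) at 4 h and 1.28 (1.16 to 1.40) at 8 h, and its interval at 2 h ran from 1.14 to 1.38. When all called cells were counted, without limits on UMIs, genes and mitochondrial share, its log2 changes were 0.17, 0.03 and 0.17 in place of 0.31, 0.21 and 0.34. They were 0.36, 0.26 and 0.39 in cells under 5% mitochondrial UMIs, and 0.58, 0.43 and 0.51 in cells with no UMI of the proliferation genes TOP2A and MKI67. Before those limits, mitochondrial UMIs had a median share of 7.29% in the 0 h cells, against 4.63% to 4.95% at the later times, and the part of this in the KLF13 values was not tested. In T-47D KLF13 was at 4.85, 4.26, 4.32 and 4.87 CPM, and all intervals of its ratios included 1.

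KLF16 (chromosome 19, 1852399 to 1876536) was at 13.7, 15.8, 15.4 and 16.5 CPM in Ishikawa, and its ratio to 0 h excluded 1 at 8 h only, at 1.21 (1.03 to 1.43). In Ishikawa cells with no TOP2A and MKI67 UMI its log2 changes were -0.24, -0.21 and -0.03 in place of 0.20, 0.17 and 0.25, so its direction depended on the cells counted. In T-47D it was at 6.99, 8.52, 6.78 and 7.81 CPM, with a ratio of 1.22 (1.01 to 1.47) at 2 h. KLF11, a close relative of KLF10, lay between 2.71 and 3.33 CPM in Ishikawa and between 2.60 and 3.87 CPM in T-47D. KLF9 lay between 1.32 and 2.21 CPM and between 1.75 and 2.24 CPM. For KLF9 and KLF11 all intervals of the ratios to 0 h included 1 in both lines.

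KLF3, the CtBP-binding repressor (chromosome 4, 38664199 to 38701517), was lower after E2 in T-47D. It stood at 22.1 CPM (20.5 to 23.7) at 0 h, 14.7 CPM (13.2 to 16.2) at 2 h, 16.8 CPM (15.4 to 18.3) at 4 h and 16.2 CPM (14.1 to 18.6) at 8 h. The 0 h interval lay above the other 3, which overlapped. The ratios were 0.665 (0.586 to 0.753), 0.761 (0.678 to 0.854) and 0.736 (0.628 to 0.859), and the log2 change of -0.56 at 2 h was just short of the fold rule. In Ishikawa KLF3 was at 19.5, 19.2, 19.1 and 17.4 CPM, and all intervals of its ratios included 1. The T-47D to Ishikawa ratio was 1.13 (0.989 to 1.30) at 0 h and 0.766 (0.671 to 0.872) at 2 h. The difference between the lines in response cannot be tested with 1 culture for each line and time.

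The share of cells with at least 1 UMI followed the levels. To take out depth, each cell was thinned to 10000 UMIs, which left out 13 to 37 cells per Ishikawa pool and none in T-47D. In Ishikawa the thinned share of KLF5 was 31.4% (28.1% to 34.8%) at 0 h, 22.7% (20.6% to 25.0%) at 2 h, 24.6% (21.8% to 27.6%) at 4 h and 30.0% (27.6% to 32.4%) at 8 h. Without thinning these shares were 49.2%, 35.9%, 41.8% and 47.8% (intervals are exact Clopper-Pearson). The order of the times was the same in both. The thinned KLF10 share was 31.9% at 0 h and 38.7% (36.2% to 41.3%) at 8 h, and without thinning it was 49.4% and 56.6%. KLF13 was in 30.2% of thinned cells at 0 h and in 37.9% (35.4% to 40.5%) at 8 h, and in 48.7% and 58.6% without thinning. KLF6 in Ishikawa went from 14.5% at 0 h to 9.01% (7.58% to 10.6%) at 2 h after thinning, and from 23.3% to 15.3% before it. KLF3 in T-47D was in 19.3% of thinned cells (17.3% to 21.3%) at 0 h and in 12.5% (10.7% to 14.5%) at 2 h, and went from 35.5% to 24.8% without thinning. Neither library held a cell type that lacks these genes, so the share that free RNA gives was not measured. KLF17 and KLF18 had 0 UMIs in all 8 pools, where a count of 0 allows up to 0.0904 to 0.232 CPM.

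**Figure D3:**
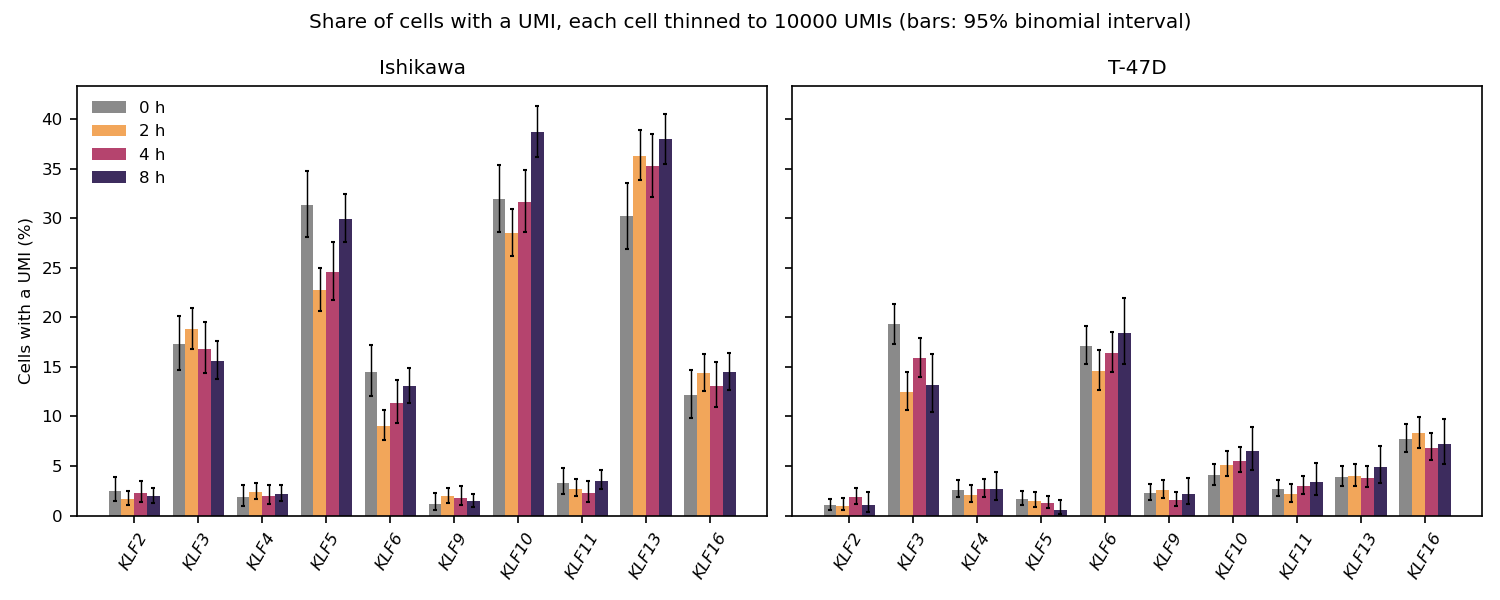
Share of cells with at least 1 UMI of each KLF gene (y axis, percent) after thinning every cell to 10000 UMIs, for the 4 times in Ishikawa (left) and T-47D (right), with 95% binomial intervals as bars. Ishikawa KLF5 went from 31.4% to 22.7% at 2 h, and T-47D KLF3 from 19.3% to 12.5%.

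Ishikawa cells with many KLF10 copies were more frequent at 4 h and 8 h by unthinned counts. Cells with at least 5 KLF10 UMIs made up 1.42%, 1.96%, 3.92% and 4.57% of the pools in order of time. The pools differed in depth, with medians of 19121.5, 19616.5, 21435.5 and 20860 UMIs per cell. The highest count in 1 cell was 8, 13, 17 and 34 at these times, and the top 1% of cells held 8.40%, 9.37%, 9.46% and 13.3% of the KLF10 UMIs. These counts were not thinned. In thinned cells the mean KLF10 count of the cells with a UMI was 1.37, 1.40, 1.51 and 1.70 at the 4 times. For KLF5 the top 1% held 10.4% at 0 h and 9.71% at 8 h, and for KLF13 6.04% and 5.43%.

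Ishikawa cells with at least 1% of their UMIs from the reporters, GFP and tdTomato summed, are called GFP cells here. At 0 h all 10 KLF genes were higher in them than in the rest of the pool by the plain values. Over all 8147 genes tested the median log2 difference was 0.043, and the share higher by plain values was not counted. The counting intervals of the sets did not overlap for KLF3, KLF4, KLF5, KLF6, KLF10 and KLF13. KLF4 rests on 21 UMIs in the GFP cells and 8 in the rest. How many of all genes had intervals apart was not counted. This split of the cells was made after the data were seen, and levels here are CPM of a total without the reporters. At 0 h KLF5 was at 66.4 CPM (59.8 to 73.5) in the 330 cells above the limit and at 35.9 CPM (32.1 to 40.1) in the 446 below it, and KLF6 was at 24.4 CPM (20.5 to 28.9) and 14.4 CPM (11.99 to 17.1). KLF5, KLF6 and KLF3 were among the 6.95% of genes at least 1.5-fold higher in the GFP cells at 0 h. KLF5 passed this limit also at 2, 4 and 8 h, where 3.59%, 4.84% and 5.59% of all genes did. KLF10 passed it at 4 h and 8 h and KLF6 at 8 h, and none of the 6 KLF genes tested was lower by this limit at any time. The ratio of KLF5 to 0 h was 0.628 (0.544 to 0.725) at 2 h, 0.801 (0.690 to 0.929) at 4 h and 0.942 (0.827 to 1.07) at 8 h above the limit. Below it the ratio was 0.647 (0.560 to 0.749), 0.663 (0.563 to 0.780) and 0.941 (0.823 to 1.08). The sets were thus close at 2 h and 8 h, and at 4 h the value above the limit was the higher one, with overlapping intervals. KLF10 at 8 h was 1.81-fold its 0 h level (1.59 to 2.07) above the limit, from 54.6 to 98.9 CPM, and 1.20-fold (1.06 to 1.37) below it, from 38.8 to 46.8 CPM. By the rule 1.03% of all genes were higher at 8 h above the limit, KLF10 among them, and 0.95% below it. The GFP cells had somewhat lower depth, with a median of 17929 UMIs against 19987 at 0 h and 19538 against 21726 at 8 h. What the reporter marks in these cells is not stated in the sources used here.

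Most of the KLF genes past 10 CPM varied more between cells than genes of like level. Variation before E2 was measured by the CV (the SD over the mean) of each cell's UMIs per 10000, and each gene's residual from the trend of log2(CV + 1) on the mean was ranked among genes of similar mean. In Ishikawa KLF6 was at percentile 95.3 (CV 2.25), KLF5 at 95.2 (CV 1.55), KLF10 at 94.0 (CV 1.55), KLF3 at 87.2 (CV 1.92) and KLF13 at 81.7 (CV 1.37). These 5 were in the top 20% called High noise, and KLF16 at percentile 77.8 was not. In T-47D KLF6 was at percentile 94.9 (CV 1.83) and KLF3 at 69.8 (CV 1.60). After thinning KLF13 was at 75.0 and left the top 20%, and KLF3 in T-47D was at 83.7 and entered it. KLF6 was thus in the top 20% in both lines with and without thinning.

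**Figure D4:**
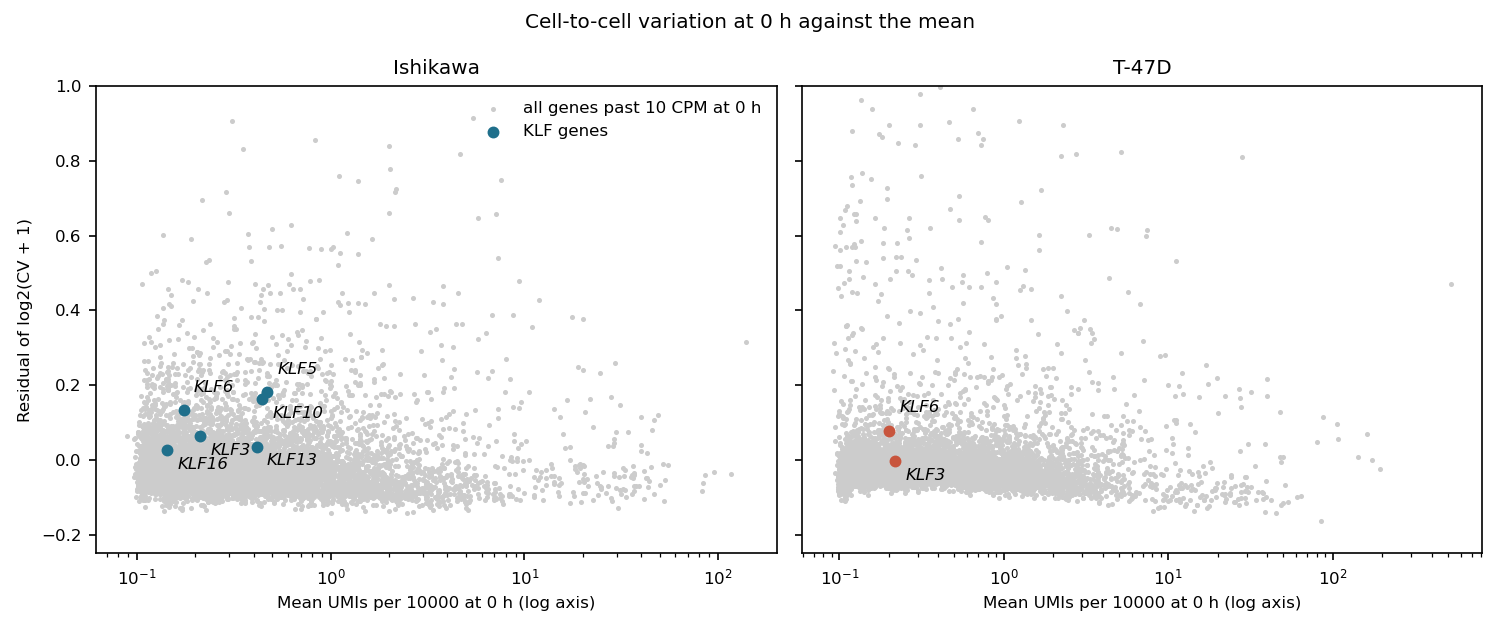
Residual of log2(CV + 1) at 0 h (y axis) against mean UMIs per 10000 (x axis, log scale) for 7943 genes in Ishikawa (left) and 7393 in T-47D (right), 1 grey point per gene, with the KLF genes named. The axis ends at 1, which leaves out 20 and 19 genes above it. KLF5, KLF6 and KLF10 lay above most genes of like mean in Ishikawa, as did KLF6 in T-47D.

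The KLF genes were barely correlated with each other across cells. Over the 15 pairs of the 6 Ishikawa genes and the 4 times, Spearman's rho across thinned cells had a median of 0.0312 and ran from -0.0330 to 0.147, with 3 of 60 values above 0.1. KLF3 and KLF6 in T-47D had values from 0.005 to 0.057. The cells share a library and the counts are sparse, so these values are a description only.

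The genes around the KLFs were read from lists. Of 17 other KLF and SP genes, 3 reached 10 CPM in Ishikawa (SP1, SP3 and SP8) and 3 in T-47D (KLF8, SP1 and SP3). SP8, a developmental SP factor, was the only member past the fold rule in either line, at 23.4 CPM at 0 h and 14.9 CPM at 4 h in Ishikawa (log2 -0.62). Of 18 cofactors and ubiquitin ligases, 15 reached the minimum in Ishikawa and 16 in T-47D. SIN3B, a scaffold of the SIN3 corepressor, was at 22.7, 32.4, 39.3 and 36.3 CPM in Ishikawa and passed at 4 h and 8 h (log2 0.76 and 0.65), and it was at 9.16, 10.9, 11.2 and 11.6 CPM in T-47D. SIN3A was at 16.9, 17.6, 16.3 and 18.1 CPM in Ishikawa. Of the KLF5 ligases, WWP1 was at 18.9, 15.9, 19.4 and 19.3 CPM and FBXW7 at 25.3, 27.1, 29.5 and 29.9 CPM in Ishikawa. FBXO32, a muscle atrophy ligase, was the only cofactor or ligase past the rule in T-47D, at 148, 107, 103 and 77.0 CPM (log2 -0.94 at 8 h). These single genes compare with 1.15% of all genes higher and 1.29% lower at some time in Ishikawa, and with 2.67% and 0.981% in T-47D.

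Of 18 genes reported as KLF targets, 13 reached the minimum in Ishikawa and none passed the fold rule. In T-47D 11 reached it and 1 passed, CCND1, the cyclin of early G1 phase, at 102 CPM at 0 h and 158 CPM at 2 h (log2 0.63). Over all genes, 1.15% were higher and 1.29% lower at some time in Ishikawa, and 2.67% and 0.981% in T-47D. CDKN1A, the target of KLF6 named above, was at 26.4, 26.3, 25.1 and 27.4 CPM in Ishikawa.

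Immediate-early genes are given because KLF6 and KLF10 are themselves known as early-response genes. Of 21 listed, 10 reached the minimum in Ishikawa, with a median log2 change of -0.42 at 2 h, -0.14 at 4 h and 0.10 at 8 h. At 2 h 4 were lower by the fold rule (JUNB -0.75, IER2 -0.71, IER3 -1.57 and ATF3 -0.80) and MYC was higher (0.77), where 0.659% and 0.786% of all genes were lower and higher. EGR1, a zinc finger factor of the serum response, was at 13.9, 11.4, 21.1 and 36.8 CPM, higher by 1.35 on the log2 scale at 8 h. In T-47D 7 reached the minimum, with medians of -0.23, -0.28 and -0.15. The only T-47D member past the rule was IER3, at 123, 299, 241 and 262 CPM. MYC lay under the minimum there, at 2.17, 8.18, 6.88 and 7.66 CPM from 72, 217, 204 and 99 UMIs (log2 1.53, 1.31 and 1.45). DUSP1, also under the minimum, was lower after E2, at 13.0, 8.60, 7.49 and 7.58 CPM (log2 -0.55, -0.72 and -0.71). Across Ishikawa cells the rho of KLF5 with ATF3 was 0.0989, 0.154, 0.0804 and 0.226 at the 4 times. With JUN it was 0.0961, 0.136, 0.108 and 0.147. These pairs were chosen after their values were seen. With FOS, EGR1 and IER3 the rho of KLF5 was lower, from -0.0651 to 0.0879.

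The pools held 12927799 to 33175309 UMIs from 553 to 1525 kept cells each. The 2 matrices shared 80 cell barcodes, and 5 of them were kept in both. Epithelial markers passed the minimum in both lines, 4 of 4. Of the 5 T-47D markers, 4 passed in T-47D and none in Ishikawa, where PIP and TFAP2B had 0 UMIs. All 4 Ishikawa markers passed in Ishikawa, and PAX8, SOX17 and EMX2 had 0 UMIs in T-47D. No immune or endothelial marker passed in either line, and their summed levels did not exceed 2.38 CPM and 1.44 CPM in any pool. The stromal marker COL1A1 was at 19.8 to 28.9 CPM in Ishikawa. Cells with neither TOP2A nor MKI67 were 27.7% to 33.9% of the Ishikawa pools and 58.4% to 68.3% of the T-47D pools.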

How the data were processed

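The authors made the deposited counts, UMIs per gene and cell barcode, from 10x Genomics 3′ libraries (v3.1 chemistry). The submitters' processing notes name Cell Ranger 3.1.0 and hg38, and the authors assigned time points with the demultiplex R package. Cells with 1 time call were used where they met the limits in the study's methods (Ishikawa 8500 to 35000 UMIs, 2700 to 6000 genes, under 7% mitochondrial; T-47D 7500 to 40000, 1500 to 6000, under 20%). Tag doublets and uncalled barcodes were left out, and no further doublet caller was run. UMIs were summed per line and time and scaled to CPM. Intervals are exact Poisson, conditional binomial for ratios and Clopper-Pearson for shares. Cell-to-cell variation used a spline fit (mgcv 1.9.3) in R 4.3.3, and other steps used Python 3.11.15 (numpy 2.4.6, scipy 1.17.1). The fold rule and the interval code were tested on simulated data. The members, lists and rules were chosen with earlier results of these data known. All 10 KLF genes are named whatever their values. Of the other lists, members past the fold rule are named, and others were added after their values were seen. For KLF genes past the fold rule the 3 nearest genes are named. RefSeq promoter windows (GRCh38.p14) were matched by symbol for 8 of 10 genes. Alternatives covered scaling, pseudocount, minimum, fold and the choice of cells. Splits by reporter share (GFP and tdTomato summed, written as GFP) and by 10% mitochondrial share were added after seeing the data.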

Additional observations from a re-analysis of the deposited data

How the results depend on the processing

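No paired analysis was possible because each line and time point was 1 culture, and no replicate could be left out for the same reason. Of 720 recomputed log2 changes of KLF genes, 691 stayed within the reach of the counting interval of the reported value and 29 moved beyond it. That reach is wide for low genes, so staying within it does not mean a stable value. KLF9 in Ishikawa at 2 h ran from -0.15 to 0.68 over 13 settings, and 0 of these counted as moved. Some changes near 0 changed sign, as KLF10 in Ishikawa at 2 h (reported as -0.01) did in 5 of 13 settings. The count of KLF genes lower in Ishikawa was 1 as reported. It was 2, KLF6 added to KLF5, with the mean over cells, pseudocount 0.1, a lower fold, a lower UMI limit, thinned cells, cells with no TOP2A or MKI67 UMI and cells of at least 1% GFP, and 0 at a minimum of 50 CPM or a fold of 2. The count higher in Ishikawa was 0 as reported. It was 2 (KLF10 and KLF13) at a lower fold and 1 (KLF10) in cells with no TOP2A or MKI67 UMI and in cells of at least 1% GFP. In T-47D the count higher went from 0 to 1 (KLF10) with no minimum. The count lower in T-47D went from 0 to 1 with pseudocount 0.1, a lower fold, thinned cells and mitochondrial UMIs under 5% (KLF3), and with no minimum (KLF5). For KLF5 in Ishikawa at 2 h the log2 change ran from -0.86 to -0.59 over all settings, and for KLF6 from -0.81 to -0.44. For KLF3 in T-47D at 2 h it was -0.03 in cells under 5% mitochondrial UMIs, which were only 45 to 130 per pool, and -0.57 and -0.53 below and above 10%. The causes of these shifts were not tested. Under TMM and median-of-ratios scaling the counts were as reported. Counting every called cell removed none in T-47D, so it gave no second value there. KLF2, KLF4, KLF9 and KLF11 rest on 17 to 99 UMIs per pool, which limits what can be seen of them.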

Other observations

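Barcodes that carried no time call, left out above, also held the KLF genes, and some of these levels differed from those of the called cells. In Ishikawa the 4002 such barcodes (median 17597 UMIs) had KLF5 at 33.7 CPM, KLF10 at 45.5 CPM and KLF13 at 45.2 CPM. In T-47D the 12120 such barcodes (median 7023.5 UMIs) had KLF5 at 1.67 CPM, KLF13 at 5.02 CPM, KLF3 at 16.8 CPM and KLF6 at 22.5 CPM. Each of these values lay within the range of the 4 pools of kept cells of that line, except KLF13 and KLF6 in T-47D, which lay just above it. Among the genes not yet named here, KLF3 (16.7 CPM) and KLF4 (1.60 CPM) lay below that range in Ishikawa. In T-47D KLF4 (2.03 CPM), KLF9 (1.69 CPM) and KLF11 (2.59 CPM) did so. Against the kept cells of all times together, intervals did not overlap for KLF3, KLF5, KLF6 and KLF10 in Ishikawa. The same held for KLF4 and KLF6 in T-47D. How many of all genes had intervals apart in this comparison was not counted, so these lists say nothing particular to the KLF genes.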
